A study of Mus musculus with 17 samples.

Results

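Genes that mark microglia were followed through a dilution and amplification series of mouse cortex mRNA. They were C1qa, C1qb, C1qc, Tyrobp, Trem2, Cx3cr1, Csf1r, Aif1 and P2ry12, taken as the probe sets whose only gene symbol in the array annotation is one of these names, which gave 15 probe sets of 9 genes, out of 45037 probe sets and 18193 genes with a probe set of their own. C1qb and Csf1r had 3 probe sets each, Trem2 and Cx3cr1 had 2 each, and the other 5 genes had 1 each.

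All 17 arrays measured 1 preparation of cortical mRNA (C57BL/6 mouse, adult, female). The amplified groups were 0.1, 1 and 10 pg of this mRNA after 4 rounds of antisense RNA amplification by in vitro transcription, with 3 arrays each, and 0.1 and 1 pg after 2 rounds, with 3 arrays each. A single array held 10 pg after 2 rounds, and another single array, called bulk, held 5 µg of unamplified mRNA. The sources used here do not say whether the labeling reaction is counted among the rounds. The series served as an amplification control, with inputs diluted to the amount of RNA in a cell, for a study of RNA from pooled dendrites. The arrays of a group were separate amplifications of 1 RNA, so p-values reflect how far repeated amplifications scatter and say nothing of differences among animals, and the single arrays are assumed to vary like the others. The level of a gene in cortex mRNA cannot tell fewer microglia from less mRNA per microglia. Both were the same for all groups compared here, which share 1 mRNA.

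Microglia are the resident macrophages of the brain. They make C1q, the recognition molecule of the classical complement pathway, which is assembled from the A, B and C chains encoded by C1qa, C1qb and C1qc and takes part in the removal of synapses. Trem2 is a lipid-sensing surface receptor that has no signalling tail of its own and signals through the adaptor encoded by Tyrobp and the kinase Syk. Csf1r is the receptor for the growth factors Csf1 and Il34, on which microglia depend for survival. Cx3cr1 binds fractalkine (Cx3cl1), which neurons make, P2ry12 is a receptor for ADP that directs the processes of microglia towards injury, and Aif1 encodes the calcium-binding protein Iba1.

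Levels are log2 distances from the median of the array they were read on, after each array was scaled to a common range. Probes differ in how strongly they bind, so no order between genes is read from their levels, which are compared between groups of arrays, and a level near or below 0 lies in the lower part of the array, where the background was not measured here. In bulk, 9 of the 15 probe sets lay above the median and 6 below it. On all 17 arrays 6 probe sets lay above the median, 1 lay below it, and 8 lay on both sides. By gene, 6 of the 9 had a probe set above the median in bulk, P2ry12 only just (0.02). The share of all genes with such a probe set was not counted, so this is no check of the tissue. The 6 probe sets below it were those of C1qa (−0.35), C1qb (−1.30, −1.06 and −0.47) and Aif1 (−1.92), and Cx3cr1 1450019_at (−0.90). The 10 pg array after 2 rounds had only 872 distinct values among its 45037 probe sets, the 3 arrays of 0.1 pg after 2 rounds had 1258 to 2102, and the other arrays had 1691 to 4345, so that low levels are often shared by many probe sets.

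**Figure D1:**
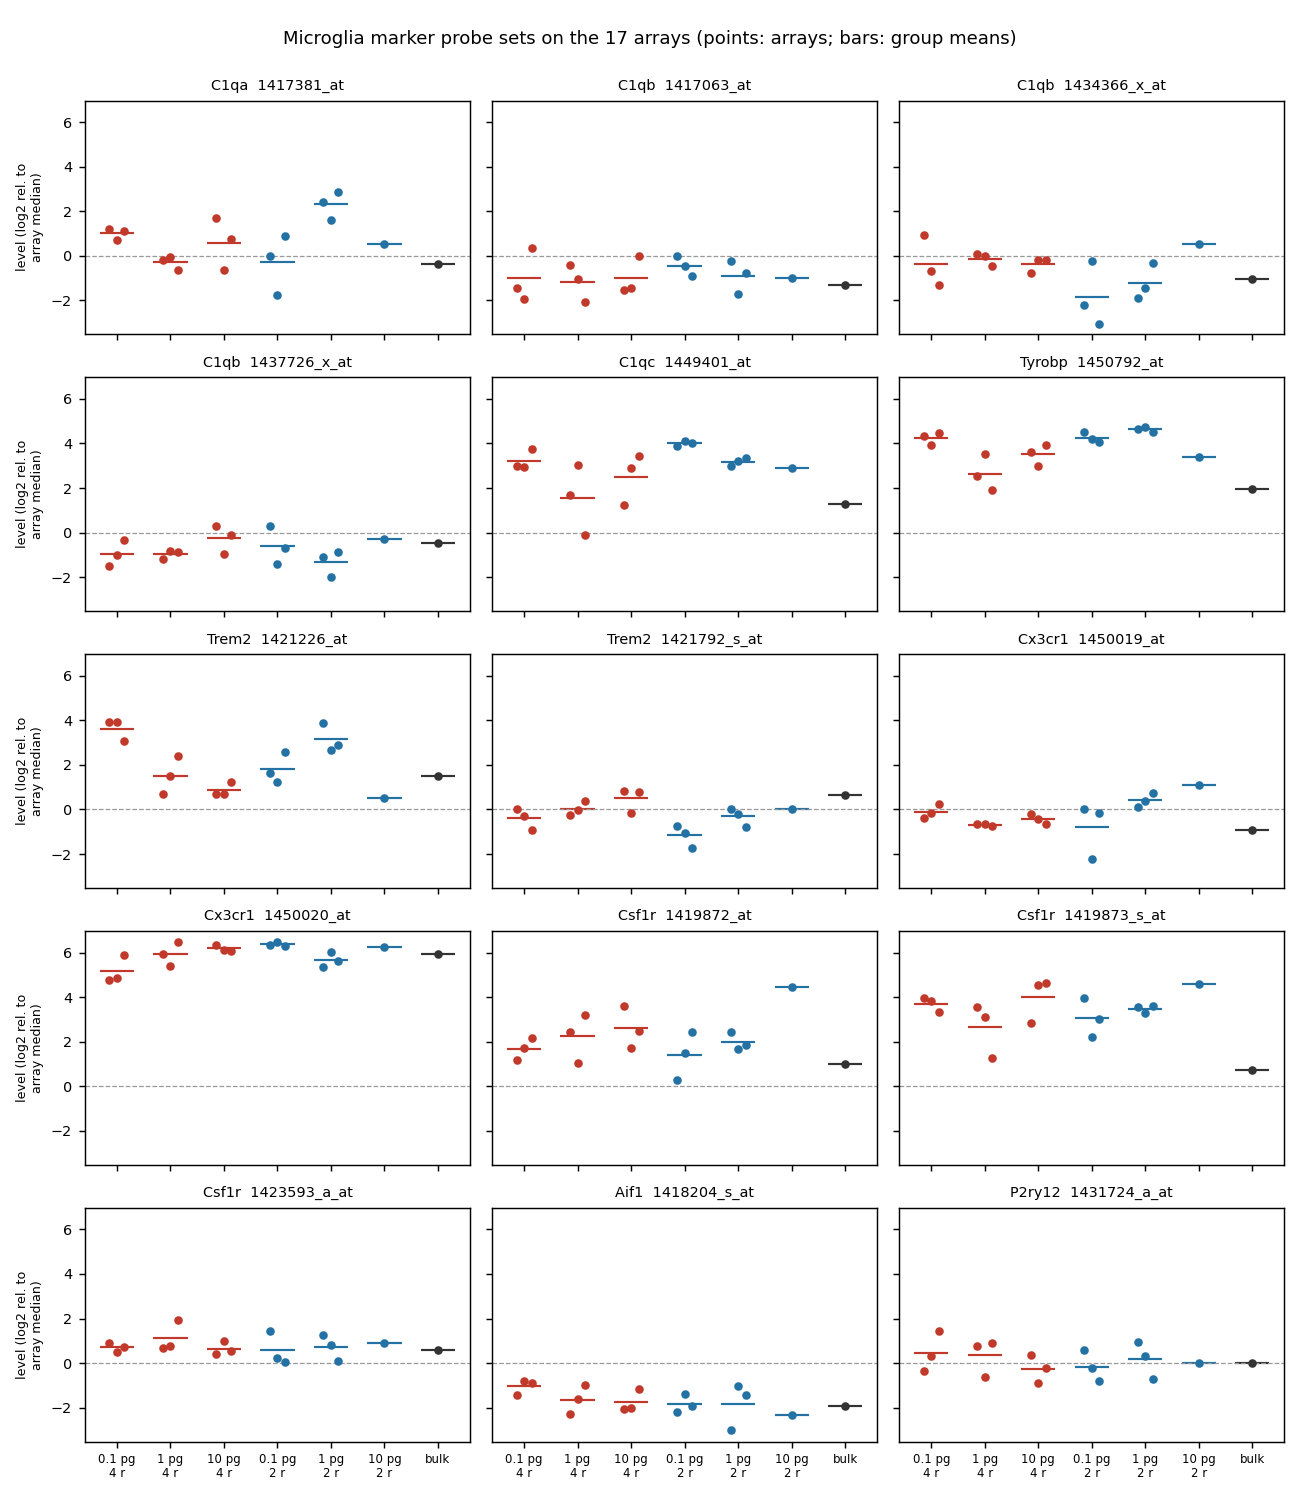
Level (log2 relative to the array median, vertical axis) of the 15 probe sets of the microglia markers on each array, by input and number of rounds (r); points are arrays, horizontal bars group means, and the dashed line is the array median. Cx3cr1 1450020_at lies between 4.78 and 6.49 on all 17 arrays, while Aif1 lies below 0 on all of them.

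Among the complement genes, the 3 chains of C1q followed different courses: over the 17 arrays Pearson's r was −0.21 between C1qa and C1qb 1434366_x_at, 0.16 between C1qa and C1qc, and −0.26 between C1qb 1434366_x_at and C1qc. C1qa (1417381_at) was at 1.22, 0.72 and 1.12 on the 0.1 pg arrays after 4 rounds, at −0.17, −0.07 and −0.65 at 1 pg and at 1.68, −0.65 and 0.75 at 10 pg. After 2 rounds C1qa was at 0.00, −1.77 and 0.91 at 0.1 pg, at 2.42, 1.62 and 2.88 at 1 pg and at 0.51 at 10 pg, against −0.35 in bulk. The highest group mean was that of 1 pg after 2 rounds, whose arrays overlapped none of the next group, 0.1 pg after 4 rounds. They did overlap those of 10 pg after 4 rounds, with 1.62 on the lowest array against 1.68 on the highest. On the lowest of all arrays, replicate 2 of 0.1 pg after 2 rounds, 2591 other probe sets had the same value as C1qa.

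C1qc (1449401_at) was at 2.97, 2.95 and 3.77 at 0.1 pg after 4 rounds, at 1.68, 3.03 and −0.11 at 1 pg and at 1.24, 2.89 and 3.42 at 10 pg. With 2 rounds it was at 3.89, 4.10 and 4.03 at 0.1 pg, at 2.98, 3.22 and 3.35 at 1 pg and at 2.92 at 10 pg, against 1.27 in bulk. It lay above bulk on 14 of 16 amplified arrays, and the arrays of a group were close together at 0.1 and 1 pg after 2 rounds (SD 0.109 and 0.188, n = 3 each) and far apart at 1 pg after 4 rounds (SD 1.57, n = 3). The 3 probe sets of C1qb lay low throughout, with group means between −1.83 and 0.51. Levels of C1qb 1417063_at ran over the 16 amplified arrays between −2.05 and 0.37, with a median of −0.95, against −1.30 in bulk. For C1qb 1434366_x_at the lowest, median and highest amplified levels were −3.04, −0.39 and 0.93, against −1.06 in bulk, and for C1qb 1437726_x_at they were −1.99, −0.86 and 0.32, against −0.47 in bulk. The suffix x marks probe sets whose probes may also bind other transcripts. The 3 genes are neighbours in the RefSeq annotation, with 0 protein-coding genes between C1qa and C1qc and 0 between C1qc and C1qb.

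Tyrobp and Trem2, the adaptor and its receptor, had a Pearson's r of 0.48 over the 17 arrays. Tyrobp (1450792_at) was at 4.34, 3.91 and 4.46 at 0.1 pg after 4 rounds, at 2.54, 3.51 and 1.91 at 1 pg and at 3.63, 2.98 and 3.94 at 10 pg. After 2 rounds Tyrobp was at 4.50, 4.22 and 4.06 at 0.1 pg, at 4.64, 4.74 and 4.52 at 1 pg and at 3.40 at 10 pg, against 1.97 in bulk. It exceeded bulk on 15 of 16 amplified arrays, the exception being replicate 3 of 1 pg after 4 rounds, and it stood in the top 10% of 14 of the 17 arrays.

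Trem2 (1421226_at) was at 3.91, 3.91 and 3.07 at 0.1 pg after 4 rounds, at 0.69, 1.48 and 2.39 at 1 pg and at 0.71, 0.68 and 1.25 at 10 pg. After 2 rounds it was at 1.64, 1.24 and 2.56 at 0.1 pg, at 3.86, 2.68 and 2.88 at 1 pg and at 0.51 at 10 pg, against 1.49 in bulk. The groups in order of their means were 0.1 pg after 4 rounds, 1 pg after 2 rounds, 0.1 pg after 2 rounds, 1 pg after 4 rounds, bulk, 10 pg after 4 rounds and 10 pg after 2 rounds. Neighbours in this order overlapped, except that the second group lay above the third, bulk above 10 pg after 4 rounds, and that group above the single array of 10 pg after 2 rounds, whose value 2196 other probe sets shared. The second probe set, Trem2 1421792_s_at, whose suffix marks probes shared among transcripts, had another order: its highest group was bulk at 0.63 and its lowest 0.1 pg after 2 rounds at −1.17 ± 0.51 (SD, n = 3).

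Of the surface receptors, Cx3cr1 and Csf1r had several probe sets each, which are given one by one. Cx3cr1 1450020_at was at 4.78, 4.86 and 5.87 at 0.1 pg after 4 rounds, at 5.92, 5.40 and 6.46 at 1 pg and at 6.36, 6.11 and 6.09 at 10 pg. After 2 rounds this probe set of Cx3cr1 was at 6.36, 6.49 and 6.31 at 0.1 pg, at 5.37, 6.03 and 5.64 at 1 pg and at 6.26 at 10 pg, against 5.92 in bulk. It was in the top 5% of all 17 arrays. Its replicate SD was 0.398, beside a median of 0.251 over the 1110 probe sets with a mean level between 5 and 7. Its other probe set, Cx3cr1 1450019_at, lay between −2.21 and 1.10 on the amplified arrays, with a median of −0.17, against −0.90 in bulk.

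Csf1r 1419873_s_at was at 3.98, 3.82 and 3.34 at 0.1 pg after 4 rounds, at 3.57, 3.13 and 1.29 at 1 pg and at 2.85, 4.56 and 4.62 at 10 pg. With 2 rounds Csf1r 1419873_s_at was at 3.95, 2.22 and 3.03 at 0.1 pg, at 3.57, 3.28 and 3.59 at 1 pg and at 4.60 at 10 pg, against 0.74 in bulk. All 16 amplified arrays were above bulk, which held for this probe set alone among the 15, where 6.67% of all 45037 probe sets had every amplified array above bulk. The suffix s of this probe set also marks shared probes. Csf1r 1419872_at was above bulk (1.00) on 15 of 16 arrays, from 0.30 to 4.47 with a median of 2.01, and Csf1r 1423593_a_at was above bulk (0.61) on 10 of 16, from 0.07 to 1.95 with a median of 0.75. P2ry12 (1431724_a_at) stayed near the median of the array in every group, with amplified levels from −0.90 to 1.43 and a median of 0.16, against 0.02 in bulk. Aif1 (1418204_s_at), whose suffix again marks shared probes, had amplified levels from −3.02 to −0.80 with a median of −1.53, against −1.92 in bulk.

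Probe sets of 1 gene gave different patterns over the arrays. Over the 17 arrays, which share their RNA and include single arrays, Pearson's r between probe sets of the same gene was highest for C1qb 1417063_at and 1437726_x_at (0.34) and lowest for both of Trem2 (−0.25). For both probe sets of Cx3cr1 it was −0.17, and for the 3 pairs of Csf1r it was 0.11, 0.03 and −0.06. Between genes, each by its probe set with the highest mean, 18 of 36 pairs had r above 0 and the median was 0.0. The highest value was 0.80, for C1qc and Tyrobp, and the lowest −0.68, for Trem2 and Cx3cr1. The median replicate SD of the 15 probe sets was 0.648, beside 0.695 over all probe sets.

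The genes most like each marker were sought over the whole array. Among 18184 other genes, those with the highest r over the 17 arrays were Ppl (0.86) and Kcnv2 (0.85) for C1qa, Uqcrb (0.84) and Cep83os (0.80) for C1qb, and Fabp9 (0.87) and Ackr4 (0.86) for C1qc. They were Ppp4r1l-ps and Tmem164 (0.96 each) for Tyrobp, Sirt4 and Tpd52l1 (0.94 each) for Trem2, and Pdia3 (0.97) and Eml3 (0.96) for Cx3cr1. For Csf1r they were Arhgef11 (0.88) and Msx1 (0.81), for Aif1 Osbpl6 (0.87) and 4931429L15Rik (0.80), and for P2ry12 4930429D17Rik (0.80) and Raver1 (0.79). None of these 18 genes is in the microglia lists used here, and each is the best of a search over all genes.

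The number of rounds was compared over 0.1 and 1 pg together, and no marker passed the test. Levels were compared with limma in 1 model of the 7 groups, with Benjamini-Hochberg adjustment over all 45037 probe sets, and a probe set was called at an adjusted p under 0.05. For 4 against 2 rounds 0 of 15 marker probe sets were called, where 3.9% of all probe sets were, and 3 had an unadjusted p under 0.05, as had 21.9% of all. Tyrobp averaged 3.45 ± 1.02 after 4 rounds and 4.45 ± 0.259 after 2 rounds (SD, n = 6 each), a difference of −1.0 (SE 0.315, limma adjusted p = 0.0805). C1qc averaged 2.38 ± 1.39 after 4 rounds and 3.60 ± 0.472 after 2 rounds (SD, n = 6 each), a difference of −1.21 (SE 0.469, limma adjusted p = 0.144). C1qb 1434366_x_at averaged −0.25 ± 0.757 and −1.52 ± 1.10 on the same sides, a difference of 1.27 (SE 0.480, limma adjusted p = 0.137). On 0 of the 15 probe sets were the arrays of both sides apart, against 1.84% of all probe sets. These values depended on single amplifications: without replicate 2 of 1 pg after 4 rounds, Tyrobp (−1.22, limma adjusted p = 0.0326) and C1qc (−1.59, adjusted p = 0.0441) were called lower, and without replicate 2 of 0.1 pg after 2 rounds, C1qb 1434366_x_at (1.67, adjusted p = 0.036) was called higher. In both cases calls over all probe sets rose as well, from 1755 to 2265.

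The effect of rounds differed between 0.1 and 1 pg for C1qa and for 1 of the 2 probe sets of Trem2. At 0.1 pg, Trem2 1421226_at averaged 3.63 ± 0.485 after 4 rounds and 1.82 ± 0.677 after 2 rounds (SD, n = 3 each), and the arrays did not overlap. At 1 pg the order was turned round, with 1.52 ± 0.847 after 4 rounds and 3.14 ± 0.633 after 2 rounds (SD, n = 3 each), again without overlap. The difference of 1.81 at 0.1 pg and that of −1.62 at 1 pg were 3.43 apart (SE 0.734, limma adjusted p = 0.0206). For Trem2 1421792_s_at the differences of 0.78 and 0.35 were 0.44 apart (SE 0.634, limma adjusted p = 0.735). Such a pattern, with all arrays higher after 4 rounds at 0.1 pg and all lower at 1 pg, was seen in 1 of the 15 probe sets and in 2.45% of all.

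C1qa averaged 1.02 ± 0.266 after 4 rounds and −0.29 ± 1.36 after 2 rounds at 0.1 pg (SD, n = 3 each), where the arrays overlapped. At 1 pg C1qa averaged −0.30 ± 0.312 after 4 rounds and 2.31 ± 0.638 after 2 rounds (SD, n = 3 each), without overlap. The differences of 1.31 and −2.60 were 3.91 apart (SE 0.918, limma adjusted p = 0.0302). In this comparison 2 of 15 marker probe sets were called, where 3.59% of all probe sets were, and 5 had an unadjusted p under 0.05, as had 20.9% of all. Tyrobp, whose difference was −0.02 at 0.1 pg and −1.98 at 1 pg, did not pass (1.96, SE 0.63, limma adjusted p = 0.0911). Leaving out 1 array ended the call of both Trem2 and C1qa in 4 cases. In these, calls over all probe sets fell from 1618 to between 341 and 532. At 1 pg, leaving out replicate 1 of the 2-round arrays gave limma adjusted p-values of 0.059 for Trem2 and 0.0719 for C1qa, and leaving out replicate 1 of the 4-round arrays gave 0.0574 for Trem2 and 0.0632 for C1qa. At 0.1 pg, leaving out replicate 1 of the 4-round arrays gave 0.0662 for Trem2 and 0.0842 for C1qa, and leaving out replicate 2 gave 0.059 for Trem2 and 0.062 for C1qa. The call of C1qa alone was also lost without replicate 3 of 1 pg after 2 rounds (0.0786), of 1 pg after 4 rounds (0.0683) or of 0.1 pg after 4 rounds (0.0517). The estimates themselves ranged between 3.02 and 3.87 for Trem2 and between 3.17 and 4.51 for C1qa when single arrays were left out.

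**Figure D2:**
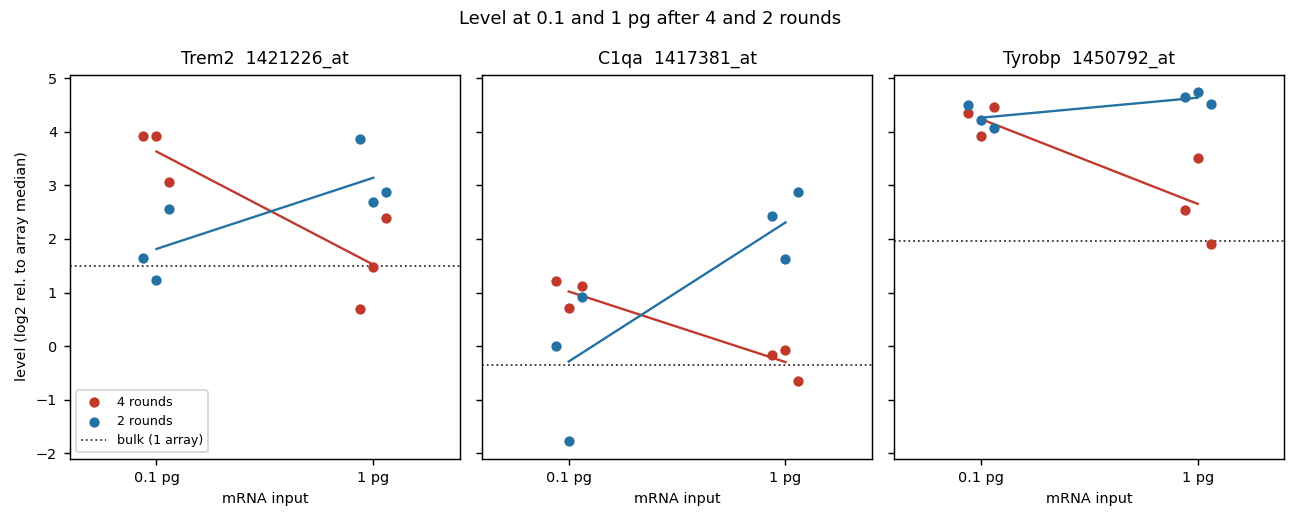
Level (log2 relative to the array median) of Trem2 1421226_at, C1qa and Tyrobp at 0.1 and 1 pg of mRNA after 4 rounds (red) and 2 rounds (blue); points are arrays, lines join group means, and the dotted line is the bulk array. The lines of Trem2 and C1qa cross, with differences between 4 and 2 rounds of 1.81 and 1.31 at 0.1 pg and −1.62 and −2.60 at 1 pg.

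Less input was compared in 3 ways, and Trem2 was the marker that passed. For 0.1 against 10 pg after 4 rounds, Trem2 1421226_at averaged 3.63 ± 0.485 at 0.1 pg and 0.88 ± 0.322 at 10 pg (SD, n = 3 each), a difference of 2.75 (SE 0.519, limma adjusted p = 0.00409). It was 1 of 15 marker probe sets called, against 8.86% of all probe sets, and 2 had an unadjusted p under 0.05, as had 25.4% of all. The other was Cx3cr1 1450020_at, which averaged 5.17 ± 0.609 at 0.1 pg and 6.19 ± 0.149 at 10 pg (SD, n = 3 each), a difference of −1.02 (SE 0.422, limma adjusted p = 0.142). These were also the 2 of 15 probe sets whose arrays did not overlap between 0.1 and 10 pg, a separation found in 40.3% of all probe sets. The call of Trem2 1421226_at held whichever array of the groups with 3 was left out, with differences between 2.61 and 3.03. However, Trem2 1421792_s_at was at −0.38 ± 0.48 at 0.1 pg and 0.50 ± 0.553 at 10 pg (SD, n = 3 each), a difference of −0.88 (SE 0.448, limma adjusted p = 0.233).

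Measures of transcript ends moved between the same arrays. The 3′ probe set of Actb exceeded its 5′ probe set by −0.99 to −0.71 on the 0.1 pg arrays after 4 rounds and by 0.61 to 1.70 on the 10 pg arrays, and for Gapdh the values were 3.68 to 3.73 and 4.49 to 4.88. The part of these measures in the difference of Trem2 was not tested. Genes of neurons moved as well: by median percentile among genes, 16 neuron genes lay at 73.7 ± 10.9 at 0.1 pg and 89.4 ± 1.98 at 10 pg after 4 rounds (SD, n = 3 each), and their part was not tested either.

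For 0.1 against 1 pg, with 4 and 2 rounds at equal weight, 0 of 15 probe sets were called, where 1.24% of all were, and 1 had an unadjusted p under 0.05, as had 15.1% of all. That was C1qc, at 3.62 ± 0.523 at 0.1 pg and 2.36 ± 1.35 at 1 pg (SD, n = 6 each), a difference of 1.26 (SE 0.469, limma adjusted p = 0.205). For 1 against 10 pg after 4 rounds, which shares the 10 pg arrays with the comparison above, 0 of 15 were called against 0.646% of all, and 1 had an unadjusted p under 0.05, as had 9.49% of all. That was Csf1r 1419873_s_at, at 2.66 ± 1.21 at 1 pg and 4.01 ± 1.01 at 10 pg (SD, n = 3 each), a difference of −1.35 (SE 0.621, limma adjusted p = 0.508). Trem2 1421226_at differed by 0.64 between 1 and 10 pg (SE 0.519, limma adjusted p = 0.808).

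**Figure D3:**
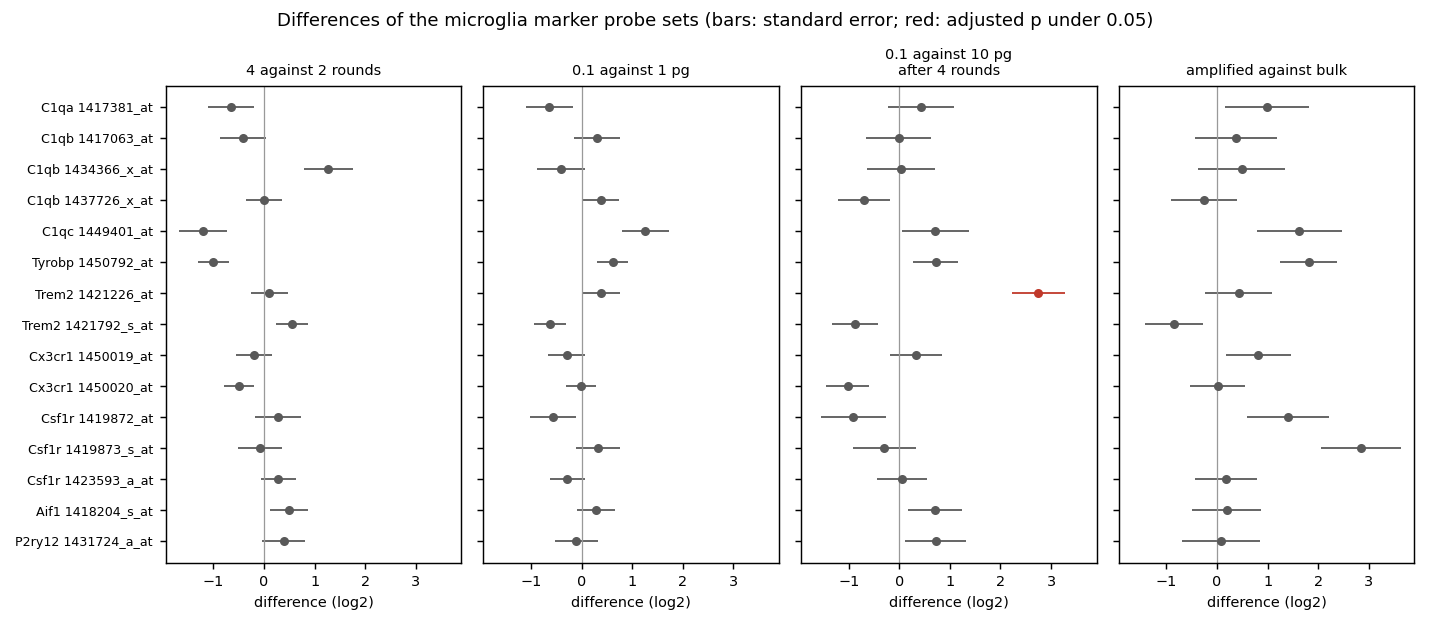
Differences (log2, horizontal axis) of the 15 probe sets in 4 comparisons from the limma model; points are estimates, bars their standard errors, and red marks an adjusted p under 0.05. Only Trem2 1421226_at, at 2.75 for 0.1 against 10 pg after 4 rounds, is red in these 4 comparisons.

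Against bulk no marker passed, with a single bulk array that sets the precision of each difference. For the 6 amplified groups against bulk 0 of 15 probe sets were called, where 1.1% of all were, and 2 had an unadjusted p under 0.05, as had 13.4% of all. Csf1r 1419873_s_at averaged 3.46 ± 0.875 on the amplified arrays (SD, n = 16) and was at 0.74 in bulk, with a fitted difference of 2.85 (SE 0.788, limma adjusted p = 0.102). Tyrobp averaged 3.83 ± 0.805 (SD, n = 16) and was at 1.97 in bulk, with a fitted difference of 1.81 (SE 0.565, limma adjusted p = 0.149). For the other probe sets of Csf1r the fitted differences were 1.4 (1419872_at) and 0.18 (1423593_a_at). Differences were positive for 13 of the 15 probe sets, with a median of 0.43, beside a median of 0.10 over all probe sets. The share of all probe sets with a positive difference was not counted, and all these differences rest on the same bulk array. Without replicate 3 of 1 pg after 4 rounds, Csf1r 1419873_s_at was called higher (2.96, limma adjusted p = 0.0464).

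For 10 pg after 4 rounds against bulk, which uses the same bulk array, 0 of 15 were called against 0.384% of all, and 2 had an unadjusted p under 0.05, as had 7.98% of all. Csf1r 1419873_s_at was at 4.01 ± 1.01 at 10 pg (SD, n = 3) and 0.74 in bulk (difference 3.27, SE 0.878, limma adjusted p = 0.15). Tyrobp was at 3.51 ± 0.489 at 10 pg (SD, n = 3) and 1.97 in bulk (difference 1.55, SE 0.63, limma adjusted p = 0.482).

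Other microglia genes, chosen with earlier results of these data known, were set beside the 9 markers. By median percentile among genes, each gene by its probe set with the highest mean, the 9 markers of the 4-round arrays lay at 83.9 ± 0.205 with 0.1 pg, 61.7 ± 7.18 with 1 pg and 62.8 ± 6.30 with 10 pg (SD, n = 3 each). On the 2-round arrays they lay at 73.1 ± 7.22 with 0.1 pg, 82.5 ± 1.15 with 1 pg (SD, n = 3 each) and 53.5 with 10 pg, against 57.4 in bulk. The median of 9 genes is the value of 1 gene on each array, and at 0.1 pg after 2 rounds that gene was Trem2. For 0.1 against 10 pg after 4 rounds the median difference was 0.7 over the 9 genes, beside 0.13 over all genes. Over the 15 marker probe sets it was 0.05, beside 0.1 over all probe sets. Of 32 other microglia genes 30 were measured, and their median percentile was between 42.8 and 50.0 in the 5 groups of 3 arrays, 55.8 on the 10 pg array after 2 rounds and 42.4 in bulk. Genes of liver, muscle and pancreas, of which 15 were measured, lay not far below, between 35.8 and 48.7 in the same 5 groups. They were at 48.0 on the 10 pg array after 2 rounds and at 33.5 in bulk. In bulk 15 of the 30 other microglia genes lay above the array median, and 5 of the 15 genes of liver, muscle and pancreas. The share of all genes above it was not counted, for these lists or for those below.

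Of the 30 genes, 2 passed a test, Itgb2 for 4 against 2 rounds and Cd53 for less input after 4 rounds. Itgb2, the beta chain of leukocyte integrins, was at 0.88 ± 0.283 at 0.1 pg and 1.27 ± 0.481 at 1 pg after 4 rounds, against 2.49 ± 1.68 and 3.35 ± 0.495 after 2 rounds (SD, n = 3 each). Itgb2 was at 3.78 on the 10 pg array after 2 rounds and at −0.04 in bulk. Its difference for 4 against 2 rounds was −1.85 (SE 0.444, limma adjusted p = 0.0316), 1 of 30 genes called where 4.26% of all genes were. Cd53, a tetraspanin of leukocytes, had 4-round levels of −0.23 ± 0.51 with 0.1 pg, 0.14 ± 0.927 with 1 pg and 3.34 ± 0.612 with 10 pg (SD, n = 3 each), against −0.07 in bulk. It was lower at 0.1 than at 10 pg (−3.57, SE 0.59, limma adjusted p = 0.00165) and lower at 1 than at 10 pg (−3.21, SE 0.59, limma adjusted p = 0.0167). It was the 1 of 30 called in each, where 9.98% and 0.649% of all genes were. In the other 4 comparisons 0 of the 30 were called, where the share of all genes was 1.5% for 0.1 against 1 pg, 0.264% for 10 pg after 4 rounds against bulk, 0.824% for amplified against bulk and 3.99% for the difference in the effect of rounds.

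Of 20 ligands and signalling partners of the markers, 15 were measured and 11 lay above the array median in bulk. C2, which the C1 complex cleaves in the classical pathway, was at 1.86 ± 0.844 at 0.1 pg and −0.35 ± 0.234 at 10 pg after 4 rounds (SD, n = 3 each), a difference of 2.20 (SE 0.579, limma adjusted p = 0.0263). The effect of rounds on C2 also differed between 0.1 and 1 pg, by 3.58 (SE 0.818, limma adjusted p = 0.0266), with 1.86 ± 0.844 after 4 and 0.20 ± 0.802 after 2 rounds at 0.1 pg, and −0.10 ± 0.506 after 4 and 1.83 ± 1.03 after 2 rounds at 1 pg (SD, n = 3 each). Syk, the kinase downstream of Tyrobp, differed in the same comparison by 4.47 (SE 1.2, limma adjusted p = 0.0496). At 0.1 pg Syk was at 3.21 ± 0.32 after 4 and 0.95 ± 0.987 after 2 rounds, and at 1 pg it was at 0.86 ± 1.17 after 4 and 3.07 ± 0.176 after 2 rounds (SD, n = 3 each). The list thus had 1 of 15 genes called for 0.1 against 10 pg, where 9.98% of all genes were, 2 of 15 for the difference in the effect of rounds, where 3.99% were, and 0 in the other 5 comparisons.

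Of 16 genes of border macrophages and blood immune cells 15 were measured, and they lay at a median percentile between 31.4 and 38.0 in the 5 groups of 3 arrays, 48.0 on the 10 pg array after 2 rounds and 37.5 in bulk. In bulk 6 of the 15 lay above the median. Mrc1, the mannose receptor of border macrophages, was at 3.04 ± 0.378 at 0.1 pg and 1.14 ± 0.465 at 10 pg after 4 rounds (SD, n = 3 each), a difference of 1.89 (SE 0.461, limma adjusted p = 0.018). Nkg7, a granule protein of cytotoxic lymphocytes, averaged 0.34 ± 0.309 at 0.1 pg and 1.97 ± 0.682 at 1 pg after 4 rounds, against −0.96 ± 1.57 and −0.42 ± 0.378 after 2 rounds (SD, n = 3 each), and was higher with 4 rounds (1.84, SE 0.444, limma adjusted p = 0.0319). Each was the 1 of 15 called in its comparison, where 9.98% of all genes were called for Mrc1 and 4.26% for Nkg7. The part of such cells in the levels of the 9 markers was not tested.

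**Figure D4:**
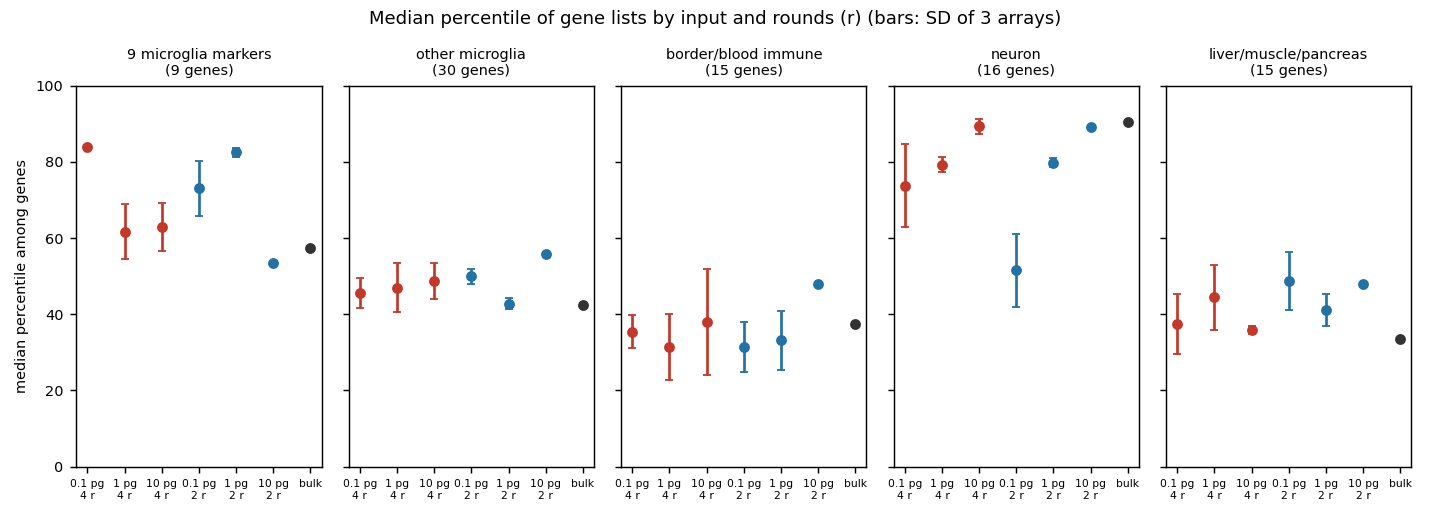
Median percentile among genes (vertical axis) of 5 gene lists by input and number of rounds (r); points are means of 3 arrays with their SD, or single arrays for 10 pg after 2 rounds and bulk. At 0.1, 1 and 10 pg after 4 rounds the 9 microglia markers lie at 83.9, 61.7 and 62.8, against 57.4 in bulk. Their median is the value of 1 gene on each array. The 16 neuron genes lie at 73.7, 79.3 and 89.4, against 90.5 in bulk. The 30 other microglia genes lie at 45.5, 47.0 and 48.7, against 42.4 in bulk.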

How the data were processed

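The authors summarized Affymetrix mouse arrays with RMA 2.0 (upper decile statistic, per the methods) and deposited log2 values from 1.56 to 15.8 for 45101 probe sets. Of these, 64 controls were left out. Each of the 17 columns matched 1 array by its label. The deposited values lack the median centering and range scaling that the methods describe (array medians 5.64 to 6.01), so both were applied: each array was centered, divided by its 10th to 90th percentile range and multiplied by the mean range of 4.64. Gene symbols came from the array annotation. A gene in a list is represented by its probe set with the highest mean.

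Differences were fitted with limma 3.58.1 in R 4.3.3 (7 group means, eBayes defaults, 16.4 total degrees of freedom), a setup tested on simulated data. Other values were computed in python 3.11.15 with numpy 2.4.6 and pandas 2.3.3, and plots drawn with matplotlib 3.10.9. The number of arrays limits the precision. Named were all marker probe sets, list genes past the threshold, and the 2 genes most correlated with each marker; the rule also held the 2 highest and 2 lowest genes of each list in bulk, which are left out because levels of different probe sets give no order. The markers and lists were chosen with earlier results of these data known. Alternatives were other scalings, a filter on low probe sets, other fits and thresholds, the replicate block, 1 probe set per gene, and each array left out.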

Additional observations from a re-analysis of the deposited data

Results flagged for a closer look

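The effect of the number of rounds on Trem2 1421226_at differed between 0.1 and 1 pg, by the test of the difference itself. The level after 4 rounds exceeded that after 2 rounds by 1.81 at 0.1 pg and by −1.62 at 1 pg, 3.43 apart (SE 0.734, limma adjusted p = 0.0206), and the arrays of both sides were apart at each input. C1qa differed by the same test: 4 rounds exceeded 2 rounds by 1.31 at 0.1 pg and by −2.60 at 1 pg, 3.91 apart (SE 0.918, limma adjusted p = 0.0302). These are 2 of 15 probe sets, where 3.59% of all probe sets passed. With single arrays left out, Trem2 lost its call in 4 of 15 cases and C1qa in 7 of 15, and neither was called in 4. In those 4, calls over all probe sets fell from 1618 to between 341 and 532. The other probe set of Trem2, 1421792_s_at, did not pass (0.44, limma adjusted p = 0.735). The Actb 3′ minus 5′ difference on these arrays was −0.99 to −0.71 after 4 and −3.34 to 0.29 after 2 rounds at 0.1 pg, and −0.02 to 0.57 after 4 and −0.70 to 1.29 after 2 rounds at 1 pg; its part was not tested.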

How the results depend on the processing

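Deposited values, median centering alone, quantile normalization, 1 probe set per gene, leaving out probe sets below the median and leaving out the 10 pg array after 2 rounds gave the same count of called marker probe sets in all 7 comparisons, as did a fit of the compared groups alone and the methods' t-test in the comparisons that allow them. Under the methods' false discovery rate of 0.1%, 0 were called instead of 1 for 0.1 against 10 pg after 4 rounds and 0 instead of 2 for the difference in the effect of rounds; a stricter threshold does this by construction. With an intensity trend and robust settings, 1 was called for 4 against 2 rounds (Tyrobp, −1.0, limma adjusted p = 0.0499) and 2 for 0.1 against 10 pg (Trem2 1421226_at, and Cx3cr1 1450020_at at −1.02, adjusted p = 0.0381); the cause was not tested. With single arrays left out, counts ranged from 0 to 2 for 4 against 2 rounds, from 0 to 1 for amplified against bulk and from 0 to 3 for the difference in the effect of rounds, and were constant in the other 4 comparisons. Calls over all probe sets moved too, in the first 3 between 675 and 2887, 303 and 718, and 341 and 3325 in that order. The adjusted p of Trem2 1421226_at for 0.1 against 10 pg ranged between 0.00258 and 0.0258 with single arrays left out and reached 0.0457 with the methods' t-test. The 3 called differences, those of Trem2 1421226_at and C1qa, kept their sign under every alternative run; the signs of the other differences were not followed.

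Replicate numbers did not pair the arrays: deviations from the group means correlated at a mean r of −0.007 over 30 pairs with the same number, 2 of them over 0.1. With the replicate block, on the 15 arrays of groups with 3, the counts were 0 for 4 against 2 rounds, 0 for 0.1 against 1 pg, 1 for 0.1 against 10 pg, 0 for 1 against 10 pg and 2 for the difference in the effect of rounds, as without it. Comparisons with bulk, which is 1 array, allow no block.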

Other observations

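Lists of other cell types, put beside the microglia markers as a gauge of the same arrays, also held genes that passed a limma test. Each gene of these lists, and of the lists above, was read from 1 probe set. Its call was not followed with single arrays left out. Of 16 neuron genes 5 were lower at 0.1 than at 10 pg after 4 rounds: Eno2 (−5.38, adjusted p = 0.00165), Nefl (−5.05, adjusted p = 0.00143), Snap25 (−3.65, adjusted p = 0.000851), Nefm (−3.24, adjusted p = 0.0275) and Stmn2 (−3.0, adjusted p = 0.00718), where 9.98% of all genes were called in either direction. In the other comparisons Snap25 was higher after 4 than after 2 rounds (3.34), Eno2 (−3.57) and Snap25 (−3.41) were lower at 0.1 than at 1 pg, and Nefl (−4.29) and Rbfox3 (−2.06) were lower at 1 than at 10 pg, where 4.26%, 1.5% and 0.649% of all genes were called in that order of comparisons. Rbfox3 was higher (2.65) and Vsnl1 lower (−4.26) in the amplified groups than in bulk, and Rbfox3 was also higher at 10 pg after 4 rounds than in bulk (3.66), where 0.824% and 0.264% of all genes were called in that order. Of the astrocyte genes 1 of 12 passed in any comparison, Fgfr3, higher at 0.1 than at 10 pg after 4 rounds (1.90). Of 12 oligodendrocyte genes, Mbp was higher (2.99) and Opalin lower (−2.20) in that comparison, and so 1 of 12 astrocyte and 2 of 12 oligodendrocyte genes stand beside the same 9.98%. Of 11 endothelial and pericyte genes Pdgfrb was higher (1.94) and Kdr lower (−2.96) there, Rgs5 was lower at 1 than at 10 pg (−2.11), and the effect of rounds on Pdgfrb (5.71) and Rgs5 (4.09) differed between 0.1 and 1 pg. Of 15 genes of liver, muscle and pancreas, Cela1 differed in that last way (4.07), for which 3.99% of all genes were called.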
